A study of Mus musculus with 4 samples.

Results

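Macrophage 6 is a cluster of alveolar macrophages that came almost entirely from mice that had breathed Afghanistan particulate matter (APM), a mineral dust. Its members are the cells that the authors' annotation places in refined cluster Macrophage 6 and in the coarse type alveolar macrophage, and the rule used no further value. They number 736 of the 9925 deposited cells and of 7933 alveolar macrophages. Single-cell transcriptomes of bronchoalveolar lavage cells from C57BL/6 mice were recorded in 4 libraries, each a pool of 7 mice, harvested on day 39. The HDM+APM mice breathed APM (5 mg/m3, 6 hours daily, 12 days) and then received 10 µg of house dust mite allergen (HDM) through the nose. The APM mice had the same dust and intranasal saline, the HDM mice filtered air and the allergen, and the control mice filtered air and saline. Because each group is 1 pooled library, no difference has a replicate check, no p-value is given, and every interval is a 95% interval that covers counting error alone. No treatment can be told apart from its library.

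Alveolar macrophages live in the air spaces, where they take up inhaled particles and recycle the lipid-rich surfactant. Their identity depends on the nuclear receptor PPAR-gamma, and they carry fatty acid-binding proteins, which shuttle lipids inside the cell, and sterol exporters. Ingested mineral dust is known to evoke antioxidant and metal-binding genes in macrophages, many of them controlled by the transcription factor Nrf2.

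The cluster was an APM library cluster. The libraries held 2 members in HDM+APM, 688 in APM, 4 in HDM and 42 in control, so 93.5% of the members came from the APM library. It made up 18.6% of APM alveolar macrophages (17.4 to 19.9, exact binomial interval, 3697 cells) and 1.08% of control alveolar macrophages (0.781 to 1.46, 3882 cells). A cluster that rests on 1 library may reflect that library rather than a cell type, and these cannot be told apart here. 1 further APM cell had the Macrophage 6 cluster name but an epithelial coarse type and was left out. Of 9883 distinct cell barcodes, 42 occurred in more than 1 library. Only 4 Macrophage 6 cells carried such a barcode, and no such pair had both cells in the cluster.

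The cells carried the alveolar macrophage programme. All 30 genes of the alveolar macrophage list had counts in APM Macrophage 6, with a summed level of 25206 CPM (unique molecular identifiers, UMIs, scaled so that each cluster's sum is 1000000), against 24534 CPM in Macrophage 4 and 22219 CPM in all other APM alveolar macrophages. The 10 leading genes of the cluster over all other deposited cells were Lepr, Fabp1, Runx1, Cytip, Krt19, Abcg1, C5ar1, Adipor2, Tcf7l2 and Epcam. Of these, 4 are on the alveolar macrophage list and Epcam is on the epithelial list. These genes define the cluster and are given as a description. Defining markers of other white blood cells were at 0 or low. The dendritic cell list summed to 19.0 CPM and the B cell list to 22.9 CPM, with Cd209a, Xcr1 and Cd79a at 0. The T cell list summed to 196 CPM, of which Cd2 gave 191 CPM, while Cd3e and Cd3g were at 0. The classical monocyte list summed to 245 CPM, of which Fn1 gave 229 CPM, with Ly6c2 at 0. The neutrophil list summed to 105 CPM, of which S100a8 gave 53.7 CPM, with Retnlg at 0. Ly6g was at 0 too, but also in the APM granulocyte-like cells, where the list summed to 35834.5 CPM.

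Macrophage 6 was shallow, but it was not the shallowest cluster. Its APM cells held a median of 1844.5 UMIs (range 883 to 2750) and 978 genes, against 2657 UMIs (1787 to 4431) and 1233 genes in Macrophage 4. Macrophage 8 was lower, at a median of 1182 UMIs, and the remaining clusters lay between 2366.5 and 5082 UMIs. The 2 clusters divide the depth scale: 293 Macrophage 6 cells lay below the shallowest Macrophage 4 cell, and 436 Macrophage 4 cells lay above the deepest Macrophage 6 cell. Genes per cell were close at equal depth. Thinned to 500 UMIs each, the cells gave a median of 358 genes in Macrophage 6 and 350 in Macrophage 4. The median mitochondrial share was 2.54% in Macrophage 6 and 2.58% in Macrophage 4. The 42 control members were shallow too, with a median of 1603.5 UMIs.

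**Figure D1:**
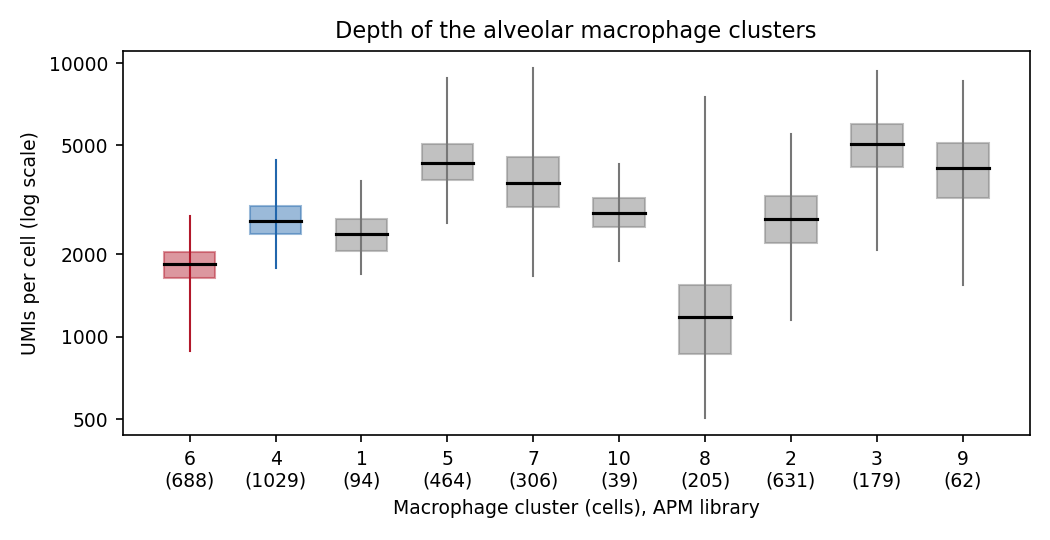
UMIs per cell (log scale) in the 10 alveolar macrophage clusters of the APM library, with the number of cells in brackets; boxes span the quartiles, black bars are medians and lines run to the lowest and highest cell. Macrophage 6 (red, median 1844.5) lies under Macrophage 4 (blue, 2657) and above Macrophage 8 (1182).

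Fabp1, the liver-type fatty acid-binding protein and the cluster's marker, had a level of 662 CPM (618 to 709, exact Poisson interval) in APM Macrophage 6, against 656 CPM (626 to 687) in APM Macrophage 4. The clusters' intervals overlap, so Fabp1 did not tell the 2 apart at this depth. It was lower in every other APM cluster: 487 CPM in Macrophage 5, 442 in Macrophage 7, 411 in Macrophage 10, 321 in Macrophage 1, 156 in Macrophage 8, 119 in Macrophage 2, 100 in Macrophage 3 and 72.0 in Macrophage 9. The small number of members elsewhere gave wide intervals. Fabp1 stood at 741 CPM (241 to 1730) in the 4 HDM cells and at 772 CPM (580 to 1007) in the 42 control cells. No Fabp1 count was seen in the 2 HDM+APM cells, where 3 counts would make 1133 CPM, which is not an interval bound. Fabp1 was found in 52.5% of APM Macrophage 6 cells (48.7 to 56.3) and in 62.2% of Macrophage 4 cells (59.2 to 65.2). Thinned to 500 UMIs, the shares were 25.3% (22.1 to 28.7) in Macrophage 6 and 24.0% (21.4 to 26.7) in Macrophage 4. In APM T cells, which should lack the gene, a count was found in 11.5% of 52 cells of median depth 1129.5 UMIs, and in 3.85% after thinning.

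The Fabp1 promoter is shown because the gene is the cluster's marker and its letters hold a PPAR element. The 250 bases before the start site (RefSeq, GRCm38.p6, chr6:71199629-71199878, plus strand) contain 1 match to a pair of AGGNCA repeats with 1 base between them, searched on both strands and printed in capitals, 67 bases before the start. Such a match occurs in 0.338% of 32851 promoters, and among 22 alveolar macrophage list genes with a promoter in the table only Fabp1 has one.

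Fabp1: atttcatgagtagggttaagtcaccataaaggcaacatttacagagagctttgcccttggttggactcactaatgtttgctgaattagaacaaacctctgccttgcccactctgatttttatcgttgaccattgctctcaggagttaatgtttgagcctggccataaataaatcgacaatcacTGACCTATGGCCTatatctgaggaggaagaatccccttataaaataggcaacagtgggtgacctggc

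Set against Macrophage 4 in the same library, Macrophage 6 differed little. The sums held 1265193 UMIs in Macrophage 6 and 2816868 in Macrophage 4, and 4604 genes averaged at least 25 CPM over the 2 sums. A gene is counted as higher or lower where the ratio of CPM + 10 reached 1.5-fold, and all log2 ratios use that pseudocount. On that rule 40 genes (0.869%) were higher in Macrophage 6 and 9 (0.195%) were lower. With the ratios centred on their median gene, 12 were higher and 23 lower. The median log2 ratio of all these genes was 0.07 and the median size of a log2 ratio was 0.15. Among the 1475 genes of at least 100 CPM, 3 were higher (0.203%) and 2 lower (0.136%). Because the authors' clustering used these cells' transcripts, the ratios describe the border between the clusters and test nothing.

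Ccnl1, a cyclin that acts in pre-mRNA splicing, had the highest ratio of those 1475 genes. It was at 137 CPM (117 to 159) in Macrophage 6 and 78.5 CPM (68.5 to 89.5) in Macrophage 4, a log2 ratio of 0.73. Celf1, an RNA-binding protein of splicing and mRNA decay, was at 138 CPM in Macrophage 6 and 83.1 CPM in Macrophage 4, and Rock2, a kinase of the actin cytoskeleton, had a log2 ratio of 0.62. These were the 3 genes past 1.5-fold. The other 9 of the 12 highest genes ranged from 0.51 to 0.58 on the log2 scale. They were Hiatl1, Bcl2l11 (the pro-apoptotic protein Bim), Tnks2 (a tankyrase), Txnip, Ddx17 (an RNA helicase), Tspan14 (a tetraspanin), Nrip1 (a nuclear receptor corepressor), Hipk1 (a nuclear kinase) and Cxcr4 (the receptor for CXCL12). Txnip, which restrains thioredoxin and glucose uptake, was the most abundant of them, at 992 CPM (938 to 1048) in Macrophage 6 and 679 CPM (649 to 710) in Macrophage 4.

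Car4, a membrane-bound carbonic anhydrase typical of alveolar macrophages, had the lowest ratio. It was at 271 CPM (243 to 301) in Macrophage 6 and 463 CPM (438 to 489) in Macrophage 4, a log2 ratio of -0.75. Wfdc17, a small secreted protein of the whey acidic protein family, was at 159 CPM (138 to 182) in Macrophage 6 and 268 CPM (250 to 288) in Macrophage 4. Car4 and Wfdc17 were the 2 past 1.5-fold. The remaining 10 lay between -0.55 and -0.41. They were Sdhb (a subunit of succinate dehydrogenase), Psma1 and Psmb3 (proteasome subunits), Fabp5 (a fatty acid-binding protein), Ldha (lactate dehydrogenase), Sdf2l1 (a partner of the endoplasmic reticulum chaperones), Cd63 (a tetraspanin of late endosomes), Rnh1 (the ribonuclease inhibitor), Gyg (glycogenin) and Gpnmb (a glycoprotein of lipid-laden macrophages).

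**Figure D2:**
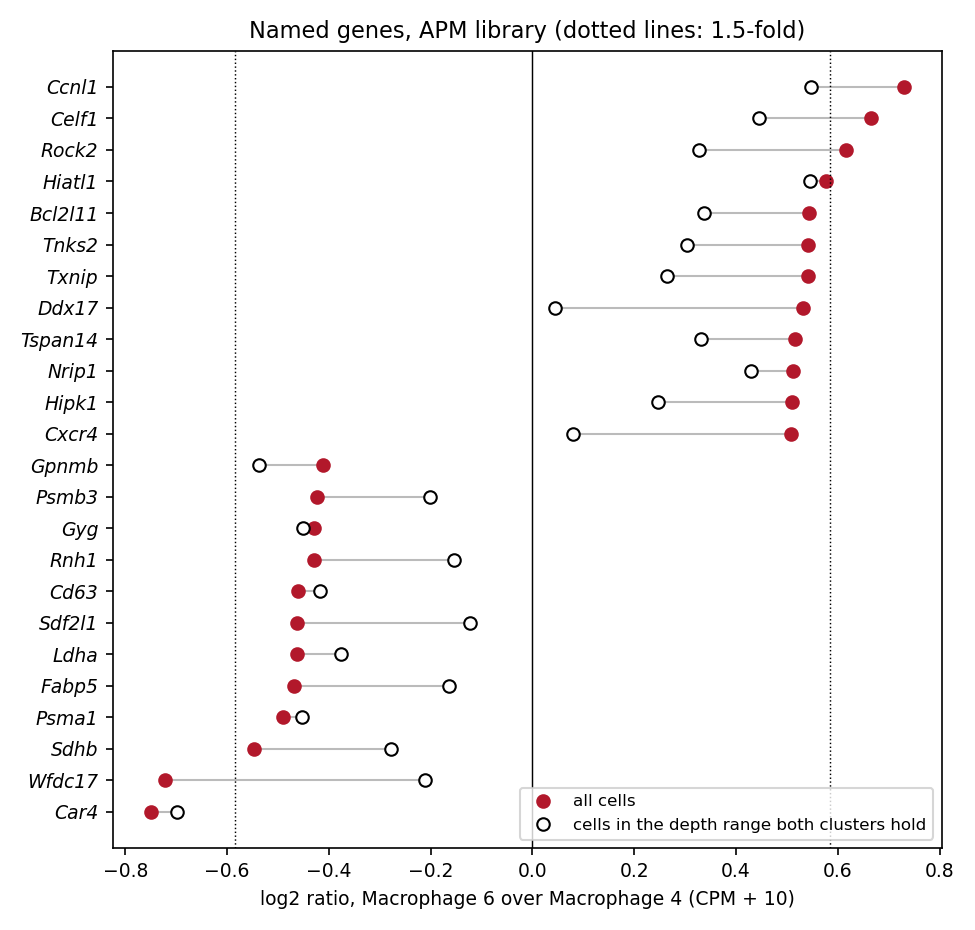
log2 ratio of Macrophage 6 over Macrophage 4 (CPM + 10, APM library) for the 12 highest and 12 lowest genes of at least 100 CPM, in all cells (filled) and in cells of 1787 to 2750 UMIs, the range both clusters hold (open). Every gene kept its side of 0, and 12 of the 12 highest and 10 of the 12 lowest lay nearer to 0 in the shared range.

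Cells of closer, though not equal, depth mostly gave smaller ratios for the named genes but more genes past 1.5-fold. In the range of 1787 to 2750 UMIs, 395 Macrophage 6 cells (median 1999 UMIs) and 593 Macrophage 4 cells (median 2418) remained. The 12 highest genes kept their direction there, with a median log2 ratio of 0.33 against 0.54 in all cells, and none reached 1.5-fold. Genes picked as the most extreme in all cells tend towards 0 in any subset, so this says nothing about depth. Over all genes tested in that range, 53 were higher and 40 lower, from smaller sums than in all cells. Ddx17 came to 177 CPM in Macrophage 6 and 171 CPM in Macrophage 4. Of the 12 lowest genes, Car4 alone stayed past 1.5-fold, at 262 CPM in Macrophage 6 and 431 CPM in Macrophage 4, while the log2 ratio of Wfdc17 was -0.21. Car4 was found in 13.4% of Macrophage 6 cells (10.9 to 16.1) and 20.4% of Macrophage 4 cells (17.98 to 23.002) thinned to 500 UMIs. The thinned share of Car4 in the APM T cells was 3.85%.

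Depth inside each cluster moved with the same genes. Each cluster was divided at its median UMI count into shallower and deeper cells, with medians of 1641.5 and 2037 UMIs in Macrophage 6 and 2381 and 3010 UMIs in Macrophage 4. Txnip stood at 1051 CPM in the shallower and 946 CPM in the deeper cells of Macrophage 6, and at 789 CPM in the shallower and 595 CPM in the deeper cells of Macrophage 4. Over these 4 steps 10 of the 12 highest genes had a lower level at every step and 7 of the 12 lowest a higher one, an order that the choice of the genes partly fixes. The 7 clusters that played no part in that choice and had at least 50 APM cells are free of it. In them, 7 to 11 of the 12 highest genes had a higher level in the shallower cells of the cluster, against 49.2 to 60.8% of all 1475 genes. The lowest of these counts was in Macrophage 1 and the highest in Macrophage 2. The 12 lowest genes were less uniform, with between 4 and 11 of them lower in the shallower cells, against 39.2 to 50.8% of all genes. Whether depth itself brings these levels about was not tested.

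**Figure D3:**
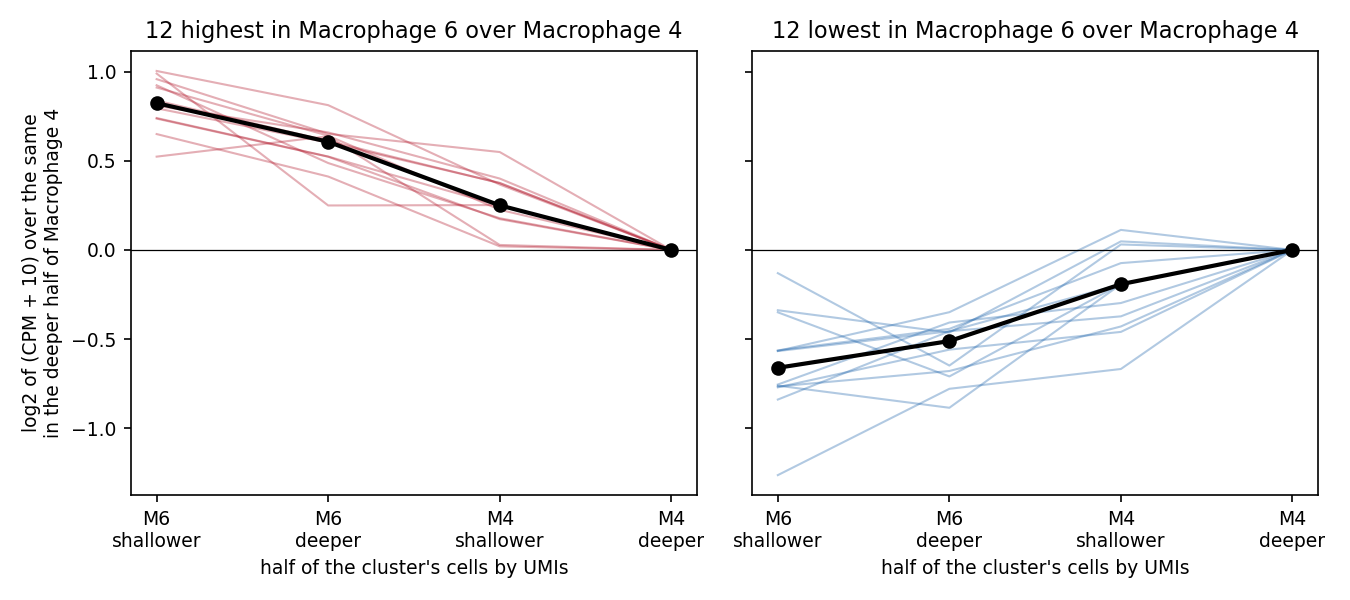
log2 of CPM + 10 in the shallower and deeper cells of Macrophage 6 (M6) and Macrophage 4 (M4), divided at each cluster's median, relative to the deeper cells of Macrophage 4, for the 12 highest (left) and 12 lowest (right) genes. Thin lines are genes and black points are medians, which step towards 0 with rising depth in both panels.

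Transcript length moved with the ratio as well. The 100 highest genes of Macrophage 6 over Macrophage 4 had a median transcript length of 4174 bases, the 100 lowest 1304.5 bases, and all 1475 genes 2128 bases (GENCODE vM21). These medians rest on the genes with a known length, which were 99 of the highest, 98 of the lowest and 1446 of all. Over 5 bins of like size, shortest transcripts first, the median log2 ratio was -0.09, -0.03, 0.04, 0.08 and 0.16. The central depth range of Macrophage 6 (1395.4 to 2320.25 UMIs) held 618 Macrophage 6 and 207 Macrophage 4 cells. Their depth still differed, with medians of 1844.5 UMIs in Macrophage 6 and 2197 UMIs in Macrophage 4. Within that range the median log2 ratio over the 5 bins was -0.06, -0.05, 0.02, 0.02 and 0.06. The part of length in these ratios was not tested.

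In all cells, the median ratios of transcripts kept in the nucleus and of those of ribosomal proteins lay on opposite sides of 0. The median of all genes was 0.07, so most genes lay above 0, as the nuclear-retained ones did. Malat1, a long noncoding RNA kept in the nucleus, was at 24330 CPM (24059 to 24603) in Macrophage 6 and 19445 CPM (19282 to 19608) in Macrophage 4. All 7 measured nuclear-retained RNAs had a log2 ratio above 0, with a median of 0.11 against 0.07 for all genes, and none reached 1.5-fold. In the central depth range described above that median was -0.01. Of 77 cytosolic ribosomal protein genes, which encode the parts of the ribosome, 65 had a ratio below 0, with a median of -0.15, also in that range, and none past 1.5-fold. Ribosomal protein genes took 16.0 and 16.7% of UMIs in the shallower and deeper cells of Macrophage 6, and 17.8 and 17.7% in those of Macrophage 4. The nuclear-encoded respiratory chain list had 49 of 67 genes below 0, with a median of -0.07.

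Few genes of any list passed 1.5-fold against Macrophage 4, which was as rare over all genes (0.869% higher and 0.195% lower). Of 29 measured alveolar macrophage genes, none was 1.5-fold higher and 1, Car4, was lower, with a list median of 0.01. The Nrf2 list, which holds antioxidant genes, had 0 of 18 past 1.5-fold and a median of 0.06, and Hmox1, the heme oxygenase, was at 349 CPM in Macrophage 6 and 343 CPM in Macrophage 4. The lysosome list (37 genes, median 0.03) and the lipid and surfactant list (29 genes, 0.05) had no gene past 1.5-fold. The same held for MHC class II (8 genes, median 0.07), the interferon response (6 genes, -0.02), and heat shock and dissociation (21 genes, 0.02). In the cholesterol synthesis list 1 of 11 genes was lower, Fdps, an enzyme of the mevalonate pathway, at 48.2 CPM (36.9 to 61.9) in Macrophage 6 and 84.1 CPM (73.8 to 95.6) in Macrophage 4.

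The other 9 clusters of the APM library, 3009 cells together, differed far more from Macrophage 6. Of 4603 genes of at least 25 CPM, 231 (5.02%) were higher in Macrophage 6 and 135 (2.93%) were lower, and with the ratios centred on their median gene 103 were higher and 188 lower. The median log2 ratio over all these genes was 0.11, so a ratio near that value is no departure from the bulk of genes. Macrophage 4 supplied 1029 of those cells. With sums thinned to an equal 227430 UMIs, Macrophage 4 was nearest to Macrophage 6, with 7.32% of 1489 genes past 1.5-fold. It was followed by Macrophage 1 with 10.9% and Macrophage 5 with 16.0%, and Macrophage 9 was farthest, with 50.5%. Such small sums carry more counting error, so these shares serve only to rank the clusters. In the full sums, 0.203% of genes of at least 100 CPM were higher in Macrophage 6 than in Macrophage 4 and 0.136% lower. Macrophage 10, with 39 APM cells, was under the 50-cell minimum and is not in this ranking.

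Several alveolar macrophage transcripts were higher than in the other clusters. Ear2, an eosinophil-associated ribonuclease expressed by alveolar macrophages, was at 1979 CPM (1902 to 2058) in Macrophage 6 and 1049 CPM (1029 to 1070) in the other clusters. Abcg1, which exports cholesterol and keeps surfactant lipid in balance, was at 1247 CPM in Macrophage 6 and 654 CPM in the others. Txnip had a log2 ratio of 1.10, Cytip (an adaptor of immune-cell adhesion) 1.08, Runx1 (a transcription factor of blood cells) 1.03 and Adipor2 (an adiponectin receptor) 0.95. Of 29 alveolar macrophage genes, 10 were higher and 4 lower, and the list median was 0.23. The higher ones included Siglecf, the sialic acid-binding receptor that marks these cells, at 119 CPM in Macrophage 6 and 70.1 CPM in the others, and Cidec, a lipid droplet protein, at 241 CPM in Macrophage 6 and 129 CPM in the others. The lower ones were Fabp4, Fabp5, Ctsk and Slc39a2. The fatty acid-binding proteins differed in direction: Fabp1 had a log2 ratio of 0.71, Fabp4 of -1.25 and Fabp5 of -1.56. The lipid and surfactant catabolism list likewise had 4 of 27 genes higher and 4 lower, with a median of 0.17 and a summed level of 8127 CPM in Macrophage 6 and 8600 CPM in the others. Against Macrophage 4 the log2 ratio was 0.27 for Ear2, 0.39 for Abcg1, 0.34 for Cytip, 0.43 for Runx1 and 0.44 for Adipor2. None of these reached 1.5-fold. Macrophage 10 was also close to Macrophage 6 for Cytip (518 against 551 CPM), Runx1 (348 against 377 CPM) and Adipor2 (348 against 397 CPM).

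Antioxidant and iron-storing transcripts were lower than in the other clusters. Of 20 measured Nrf2 list genes none was 1.5-fold higher and 12 were lower, with a median of -0.76, and the list summed to 46737 CPM in Macrophage 6 against 86420 CPM in the other clusters. Slc7a11, the cystine importer that feeds glutathione synthesis, was at 26.1 CPM (18.0 to 36.6) in Macrophage 6 and 193 CPM (184 to 202) in the others, 7.40-fold lower (5.25-fold at the near bound). Hmox1 was at 349 CPM in Macrophage 6 and 1428 CPM in the others. The ferritin chains Fth1 and Ftl1, which store iron, were at 16803 and 22337 CPM in Macrophage 6 against 34090 and 38653 CPM in the others. Prdx1, a peroxiredoxin, was at 2321 CPM in Macrophage 6 and 5096 CPM in the others, and Gclm, a subunit of the first enzyme of glutathione synthesis, at 99.6 CPM in Macrophage 6 and 228 CPM in the others. Against Macrophage 4 the log2 ratio was 0.19 for Slc7a11, 0.26 for Gclm, 0.02 for Hmox1, -0.05 for Prdx1, -0.18 for Ftl1 and -0.28 for Fth1. The whole list summed to 46737 CPM in Macrophage 6 against 53308 CPM in Macrophage 4.

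The other clusters spanned a wide range for these genes, with Macrophage 6 near the bottom. Hmox1 ran from 98.2 CPM in Macrophage 10 to 8284 CPM in Macrophage 9, and Macrophage 6 ranked 8 of 10. It had the same rank for Slc7a11, which ran from 17.9 CPM in Macrophage 10 to 716 CPM in Macrophage 9. The median of the other clusters for Slc7a11 was 84.5 CPM, under their pooled level. For Txnrd1, thioredoxin reductase, Macrophage 6 had the lowest level of the 10 clusters, at 91.7 CPM, with Macrophage 4 next at 101 CPM. Within the central depth range, where 618 Macrophage 6 cells met 521 others, Slc7a11 was at 21.1 CPM in Macrophage 6 and 237 CPM in the others, and Hmox1 at 337 CPM in Macrophage 6 and 2170 CPM in the others. Among all genes of at least 100 CPM, not Nrf2 ones alone, the 12 lowest against the other clusters stayed past 1.5-fold there. They were Slc7a11, Hmox1, Txnrd1, Stmn1, Hspa1a, Fabp5, Cd63, Wfdc17, Gpnmb, Fabp4, Bhlhe41 and Esd. Of the 12 highest by the same rule, 10 stayed past 1.5-fold. Most of the other cells in that depth range were from Macrophage 4 (207) and Macrophage 2 (185), with none from Macrophage 5.

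**Figure D4:**
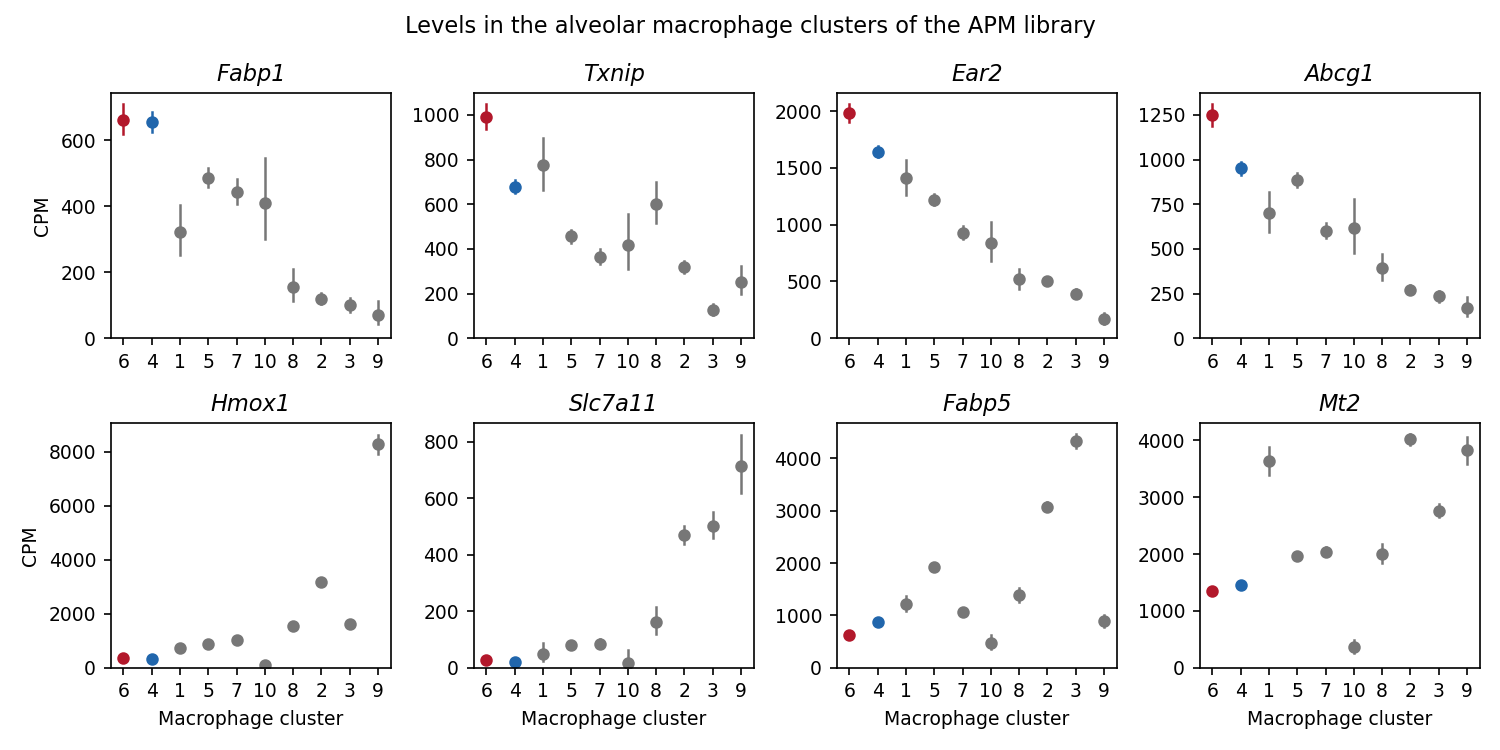
Summed level (CPM, linear axes from 0) with exact Poisson intervals in each alveolar macrophage cluster of the APM library for 8 genes. Macrophage 6 (red) and Macrophage 4 (blue) have the highest Fabp1 (662 and 656 CPM), Macrophage 6 the highest Txnip, Ear2 and Abcg1, and both are low for Hmox1 and Slc7a11.

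The promoters of Gclm and Prdx1 are shown because both genes were lower in Macrophage 6 than in the other clusters and both hold the antioxidant response element that Nrf2 binds. The element was searched as TGACNNNGC on both strands and is printed in capitals. It begins 134 bases before the start of Gclm (chr3:122245307-122245556, plus strand) and 133 bases before that of Prdx1 (chr4:116685349-116685598, plus strand), both RefSeq, GRCm38.p6. It occurs in 10.2% of all promoters and in 5 of the 20 Nrf2 list genes with a promoter in the table.

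Gclm: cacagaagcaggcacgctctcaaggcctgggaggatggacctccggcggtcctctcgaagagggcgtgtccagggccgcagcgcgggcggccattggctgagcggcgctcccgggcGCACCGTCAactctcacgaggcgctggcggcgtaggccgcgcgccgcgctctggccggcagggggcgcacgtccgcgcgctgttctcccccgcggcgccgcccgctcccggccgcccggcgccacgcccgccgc

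Prdx1: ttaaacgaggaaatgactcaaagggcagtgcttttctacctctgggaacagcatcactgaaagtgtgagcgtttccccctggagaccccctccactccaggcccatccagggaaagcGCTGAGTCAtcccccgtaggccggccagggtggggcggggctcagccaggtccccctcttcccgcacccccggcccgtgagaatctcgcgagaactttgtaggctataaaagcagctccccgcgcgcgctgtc

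Metallothioneins, which bind zinc and copper, were lower as well. Mt1 was at 6331 CPM (6193 to 6471) in Macrophage 6 and 10230 CPM in the other clusters, and Mt2 at 1350 CPM (1287 to 1416) in Macrophage 6 and 2341 CPM in the others. Of 4 measured metal-handling genes 3 were lower, the third being the zinc transporter Slc39a2. For both metallothioneins Macrophage 6 ranked 9 of 10 clusters, above Macrophage 10, and Macrophage 2 was highest, with Mt1 at 17315 CPM. Macrophage 4 was close to Macrophage 6, with Mt1 at 6867 CPM, a log2 ratio of -0.12. Against Macrophage 4, 0 of 4 measured metal-handling genes passed 1.5-fold. The Mt2 promoter, given because metallothionein genes carry repeated metal response elements, holds 5 matches to TGCNCNC in 250 bases (RefSeq, GRCm38.p6, chr8:94172368-94172617, plus strand, both strands searched, capitals). A single match is common and occurs in 44.4% of promoters.

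Mt2: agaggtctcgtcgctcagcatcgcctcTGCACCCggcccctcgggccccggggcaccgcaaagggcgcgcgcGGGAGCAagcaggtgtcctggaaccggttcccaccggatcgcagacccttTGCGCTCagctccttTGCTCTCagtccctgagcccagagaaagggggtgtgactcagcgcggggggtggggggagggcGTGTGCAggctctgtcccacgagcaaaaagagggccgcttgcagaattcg

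Further lists held genes that were lower against the other clusters, where 2.93% of all genes were lower. Of 12 cholesterol synthesis genes 5 were lower and none higher, with a median of -0.49, among them Insig1, which holds back sterol synthesis, at 67.2 CPM in Macrophage 6 and 120 CPM in the others. Of 37 lysosome genes 6 were lower, including the acid lipase Lipa, at 218 CPM in Macrophage 6 and 397 CPM in the others, and the protease cathepsin K (Ctsk), at 250 CPM in Macrophage 6 and 548 CPM in the others. Of 5 measured monocyte-derived macrophage genes 3 were lower, Apoe, Cd63 and Trem2, and the list median was -0.65, or -0.19 without Macrophage 7, 8 and 10. Of 4 measured chemokine genes 3 were lower, Cxcl2, Ccl17 and Ccl9, with a median of -0.84. The fourth, Ccl6, was at 5127 CPM in Macrophage 6 and 4684 CPM in the others. It made up most of the list, which summed to 5248 CPM in Macrophage 6 and 4951 CPM in the others. Cxcl2, which attracts neutrophils, was at 11.1 CPM in Macrophage 6 and 47.8 CPM in the others. Of 16 scavenger and uptake receptors 4 were lower, including the pattern receptors Clec4d and Clec4e. That list as a whole was not lower, with a median of 0.01, 8 genes above 0 and 8 below. Clec4e was at 32.4 CPM in Macrophage 6 and 105 CPM in the others. Cell cycle genes were lower in 8 of 13 cases, with Stmn1, a regulator of microtubules in dividing cells, at 57.7 CPM in Macrophage 6 and 274 CPM in the others. The cell cycle difference depended on which clusters were set against Macrophage 6. Without Macrophage 7, 8 and 10 the cell cycle list had a median of 0.01.

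The dissociation and heat shock list went both ways, with 3 of 22 genes higher and 3 lower. The heat shock genes Hspa1a, Hspa1b and Hsp90aa1 were lower, Hspa1a at 49.8 CPM in Macrophage 6 and 228 CPM in the others. Its highest level was in Macrophage 9, at 5685 CPM, while the median of the other clusters was 67.3 CPM. Macrophage 4, at 53.6 CPM, was close to Macrophage 6 for Hspa1a. The early response genes Fos, Dusp1 and Btg2 were higher, Dusp1, a phosphatase of MAP kinases, at 130 CPM in Macrophage 6 and 69.6 CPM in the others. The alternative activation list had 2 of 8 higher and 1 lower. Il4ra, a chain of the interleukin-4 receptor, was at 75.9 CPM in Macrophage 6 and 37.9 CPM in the others, and the chemokine Ccl17 was at 15.0 CPM in Macrophage 6 and 40.2 CPM in the others. MHC class II, interferon response and nuclear-encoded respiratory chain genes had none past 1.5-fold, with list medians from -0.03 to 0.05. The MHC class II median depended on the reference clusters, being 0.32 without Macrophage 7, 8 and 10 and -0.40 with the clusters weighted equally.

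**Figure D5:**
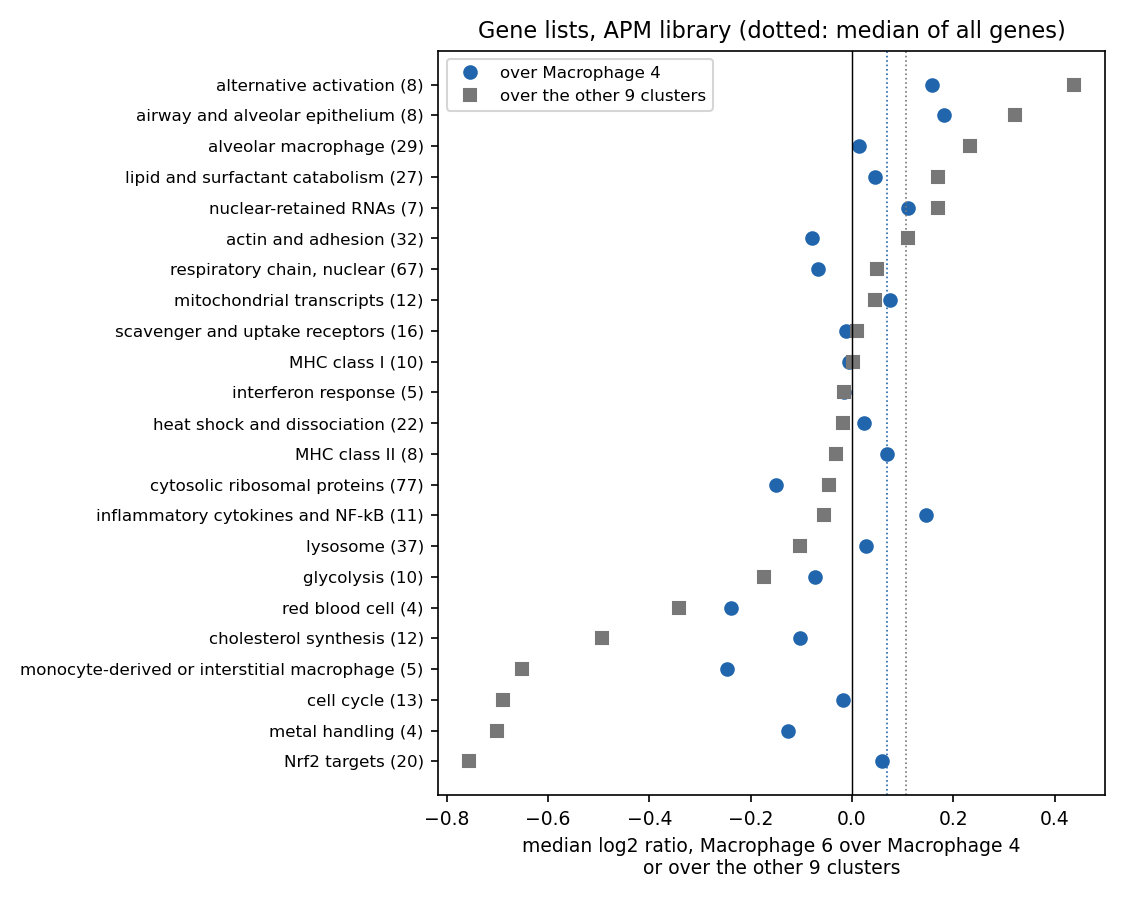
Median log2 ratio of each gene list's measured genes, Macrophage 6 over Macrophage 4 (blue circles) and over the other 9 clusters (grey squares), APM library; brackets give the genes measured in the second comparison and dotted lines the median of all genes (0.07 and 0.11). Nrf2 targets lie at 0.06 over Macrophage 4 and at -0.76 over the other clusters.

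Among the abundant genes, few varied between Macrophage 6 cells well beyond counting error. After thinning to 1000 UMIs, 308 genes averaged at least 0.5 UMIs per cell in the 685 remaining APM cells. The ratio of variance to mean, which counting alone puts at 1, had a median of 1.09 in Macrophage 6 and 1.08 in Macrophage 4. It reached 2 in 18 genes of Macrophage 6. At low means counting error makes up most of the variance, so a ratio near 1 does not show that the cells were alike. Mt1 was the most variable, at 12.5 in Macrophage 6 and 12.1 in Macrophage 4, with up to 59 UMIs in a Macrophage 6 cell. Malat1 followed at 11.5 in Macrophage 6 and 7.38 in Macrophage 4, and beta-actin (Actb) at 10.9 in Macrophage 6 and 13.8 in Macrophage 4. The haemoglobin gene Hba-a1 was at 3.31 in Macrophage 6 and 20.0 in Macrophage 4.

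Transcripts of red blood cells and airway epithelium were present throughout the APM library. The red blood cell list, mainly haemoglobin genes, summed to 4503 CPM in APM Macrophage 6, 5235 CPM in APM Macrophage 4 and 9188 CPM in APM T cells, against 372 CPM in control Macrophage 6. The epithelial list summed to 2967 CPM in APM Macrophage 6, 2655 CPM in APM Macrophage 4 and 2956 CPM in APM T cells, against 772 CPM in control Macrophage 6. Scgb1a1, the club cell secretory protein, gave 1437 CPM (1372 to 1505) in APM Macrophage 6 and 272 CPM (164 to 424) in control Macrophage 6. Its level in APM T cells was 1470 CPM. Every one of these levels was higher in the APM cells than in the control ones. The part of these transcripts in the grouping of the cells was not tested.

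The 42 control members and 21 control Macrophage 4 cells were too few for a comparison, for which at least 50 cells were required, and their levels are given beside the APM ones. Txnip was at 992 CPM in APM Macrophage 6 and at 1458 CPM (1189 to 1770) in control Macrophage 6. Ear2 was at 1979 CPM in APM Macrophage 6 and 2531 CPM (2172 to 2932) in control Macrophage 6. Hmox1 was at 349 CPM (317 to 383) in APM Macrophage 6 and 772 CPM (580 to 1007) in control Macrophage 6, and Mt1 at 6331 CPM in APM Macrophage 6 and 6048 CPM (5485 to 6653) in control Macrophage 6. Slc7a11 rested on 4 UMIs in the control cells. No difference between the libraries is read from these levels.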

How the data were processed

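Per the labels' protocols, lavage cells of pooled mice were made into 10x Genomics 3' v2 libraries. The authors deposited raw UMI counts, not normalized, for 13838 genes in 9925 cells, with a table of each cell's library, coarse type and refined cluster. Per the submitters' processing notes, mm10, Seurat 2.3.4 and Cell Ranger 2.2.0 were used, with no step named for any of them. All cells were kept as deposited and no doublet caller was run. The libraries held 1920648 to 15170333 UMIs.

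Counts were summed per cluster and library in Python 3.11.15 (scipy 1.17.1) and scaled to CPM, with exact Poisson intervals for levels, exact conditional binomial intervals for ratios and exact (Clopper-Pearson) intervals for shares of cells. These cover counting error only, and UMIs within a cell are not independent of each other. Classes under 50 cells were not compared. Named genes are Fabp1, the 12 highest and 12 lowest log2 ratios among genes averaging at least 100 CPM against Macrophage 4, and up to 3 members of each of 29 gene lists. The same rule was carried over to the comparison with the other clusters, and genes outside it were named after their values were seen. The members and lists were chosen with earlier results of these data known. Alternatives covered the pseudocount, the minimum level, the scale, free RNA, depth and the choice of reference clusters. No spread between mice can be estimated from pooled libraries.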

Additional observations from a re-analysis of the deposited data

How the results depend on the processing

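No paired analysis was possible because every group has just 1 pooled library, and no replicate could be left out. The planned comparisons within the control library and of APM with control Macrophage 6 were not run, for want of 50 cells. The 40 higher and 9 lower genes against Macrophage 4 became 128 and 31 with a pseudocount of 1 CPM, and 0 and 2 with 50 CPM. They became 110 and 45 with no minimum level, 3 and 2 at 100 CPM, and 65 and 23 without mitochondrial and ribosomal protein UMIs. Centring on the median gene gave 12 and 23, so the excess of higher genes turned round. The depth window gave 167 and 96 from fewer cells, and the depth range of both clusters, added after seeing the data, gave 40 lower genes. Averaging over cells, subtracting free RNA and dropping cells under 1000 UMIs kept both counts within 1.5 times.

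Against the other 9 clusters, the 231 higher and 135 lower genes became 46 and 64 with a pseudocount of 50 CPM and 79 and 53 at 100 CPM. The higher genes became 399 with a pseudocount of 1 CPM, 147 in the depth window and 103 when centred, against 188 lower ones in both of these. With no minimum the lower genes were 304, and with clusters weighted equally, added after seeing the data, the higher ones were 348. Without Macrophage 7, 8 and 10, also added, the cell cycle median was 0.0067 and Hmgb2 had a log2 ratio of 0.34, both reversed in sign, while the MHC class II median was 0.32 and the monocyte-derived macrophage median -0.19. With clusters weighted equally the MHC class II median was -0.40. The share of Macrophage 6 cells with Fabp1 was 38.2% at 1000 UMIs and 52.5% unthinned. The causes of these shifts were not tested.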
